A study of Mus musculus with 12 samples.

Results

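The effect of deleting Aag on liver gene expression was examined over both treatments of the study at once. All 12 arrays entered the comparison, 6 from Aag knock-out mice against 6 from wild-type mice, chosen by the genotype in the sample titles. Treatment was kept as an additive term, so that each genotype difference averages the differences without and with MMS. Such an average can also come mainly from 1 treatment. All animals were C57Bl/6J mice of 6 to 8 weeks. The 4 groups held 3 livers each, with 1 array per animal: control wild type, control Aag knock-out, wild type given methyl methanesulfonate (MMS) and Aag knock-out given MMS. MMS, a chemical that methylates DNA bases, was injected once into the peritoneum at 75 mg/kg, and livers were collected 6 hours later. The sources used here do not give the treatment of the control animals, the sex of the mice or the hour of collection. They also leave out how the Aag allele was made and how many generations it was backcrossed.

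Aag, whose mouse gene symbol is Mpg, encodes alkyladenine DNA glycosylase. The enzyme cuts methylated and other damaged bases from DNA and so opens the base excision repair pathway, which an endonuclease, a polymerase and a ligase then complete. In liver, most RNA comes from hepatocytes, with smaller shares from macrophages (Kupffer cells), lymphocytes, endothelial and stellate cells. All differences below are knock-out minus wild type in log2 units ± the fitted standard error, and a probe set is said to be called when its Benjamini-Hochberg adjusted p in limma was under 0.05.

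Few transcripts passed the test of genotype over both treatments. Pttg1, which encodes securin, the inhibitor of separase that holds sister chromatids together until anaphase, fell in knock-out liver at all 3 of its probe sets. Mpg itself fell at 1 of its 2 probe sets. Adamdec1, a metalloproteinase-like gene of the ADAM family, rose, as did 1 probe set to which the annotation gives no gene. Of 22626 probe sets, 2 were called higher (0.00884%) and 4 lower (0.0177%), and 1383 (6.11%) had an unadjusted p under 0.05. With each of 12393 genes represented by its brightest probe set, 1 gene was called higher (0.00807%) and 1 lower (0.00807%).

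The targeted gene was looked at first. At probe set 1417571_at, Mpg read 6.21, 6.49 and 6.58 in control wild-type livers and 5.44, 5.60 and 4.95 in control knock-out livers. After MMS the values were 6.40, 6.94 and 6.80 in wild type against 5.75, 5.34 and 5.32 in knock-out. Every knock-out array lay below every wild-type array. The difference was -1.17 ± 0.14 (95% interval -1.49 to -0.86, 2.25-fold lower, limma adjusted p = 0.0186), with -1.10 ± 0.21 without MMS and -1.24 ± 0.21 with it. An exact two-sided permutation test of genotype within treatments gave p = 0.005, the smallest that its 400 regroupings allow. The brighter probe set, 1417572_at, ran from 7.84 to 8.12 in control wild type, 7.36 to 7.88 in control knock-out, 8.02 to 8.50 in treated wild type and 7.62 to 8.18 in treated knock-out. Its groups overlapped in both treatments, and its difference of -0.31 ± 0.13 was not called (limma adjusted p = 0.768, exact permutation p = 0.04). Which exons were removed is not stated in the labels, so neither probe set can be placed inside or outside them. The call at 1417571_at was lost when any of 7 arrays was left out, namely control wild-type 2 and 3, control knock-out 1, treated wild-type 2 and 3, and treated knock-out 2 and 3. Over all 12 omissions its adjusted p ran from 0.0135 to 0.0820. This probe set is dim, and filters that kept those above a mean log2 value of 6, or the upper 50%, left it out.

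Pttg1 had the smallest p of any gene. At its brightest probe set, 1438390_s_at, control wild-type livers read 12.93, 12.97 and 12.96 and control knock-out livers 10.62, 10.45 and 10.83. Treated wild-type livers read 12.77, 13.21 and 13.02, and treated knock-out livers 10.33, 10.56 and 10.66. The lowest wild-type array was thus well above the highest knock-out array, and neither genotype overlapped the other in either treatment. The gene fell by 2.40 on the log2 scale (SE 0.11, 5.29-fold, limma adjusted p = 6.35e-07). The difference was -2.32 ± 0.15 without MMS and -2.49 ± 0.15 with it, and the difference between these, -0.17, was not called (interaction adjusted p = 0.713).

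Both other Pttg1 probe sets gave the same order of arrays by genotype. Probe set 1424105_a_at read 11.27, 11.36 and 11.44 in control wild type, 8.63, 8.38 and 8.50 in control knock-out, 11.08, 11.80 and 11.53 in treated wild type and 8.32, 8.90 and 8.57 in treated knock-out. Its difference was -2.86 ± 0.13 (7.28-fold lower, adjusted p = 6.35e-07). Probe set 1419620_at read 9.35, 9.35 and 9.23 in control wild type, 6.55, 6.51 and 6.68 in control knock-out, 8.98, 9.37 and 9.56 in treated wild type and 6.51, 7.04 and 6.97 in treated knock-out. Its difference was -2.60 ± 0.13 (6.05-fold lower, adjusted p = 7.62e-07). Each of the 3 probe sets was also called in the contrast without MMS and in the contrast with MMS. The calls held under all 26 alternative settings for the brightest probe set and all 24 that kept each of the others, including the omission of any 1 array.

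Adamdec1 rose in knock-out liver. Its values were 7.42, 7.27 and 7.24 in control wild type and 8.29, 8.05 and 8.14 in control knock-out, and after MMS 6.59, 6.67 and 6.84 in wild type against 7.68, 8.30 and 7.64 in knock-out. Knock-out arrays were above wild-type arrays in both treatments, and also over all 12 arrays. The difference was 1.01 ± 0.13 (2.01-fold, limma adjusted p = 0.0197), made up of 0.85 ± 0.17 without MMS and 1.17 ± 0.17 with it. The call was lost on leaving out any of 7 arrays, control wild-type 2 and 3, control knock-out 1, all 3 treated wild-type arrays or treated knock-out 3, with adjusted p from 0.0043 to 0.0927 over the 12 omissions. The unnamed probe set, 1439200_x_at, read 5.85, 5.87 and 5.89 in control wild type and 6.39, 6.25 and 6.00 in treated wild type. In knock-out livers it read 10.76, 7.46 and 11.96 without MMS and 9.45, 10.68 and 10.51 with it. Knock-out arrays were all higher, but control knock-out array 2 stood far below the other 5. The difference was 4.09 ± 0.58 (17.1-fold, limma adjusted p = 0.0466). This call was kept in only 2 of 12 omissions, those of control knock-out array 2 (4.66, adjusted p = 0.000129) and control knock-out array 3 (3.66, adjusted p = 0.0389).

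**Figure D1:**
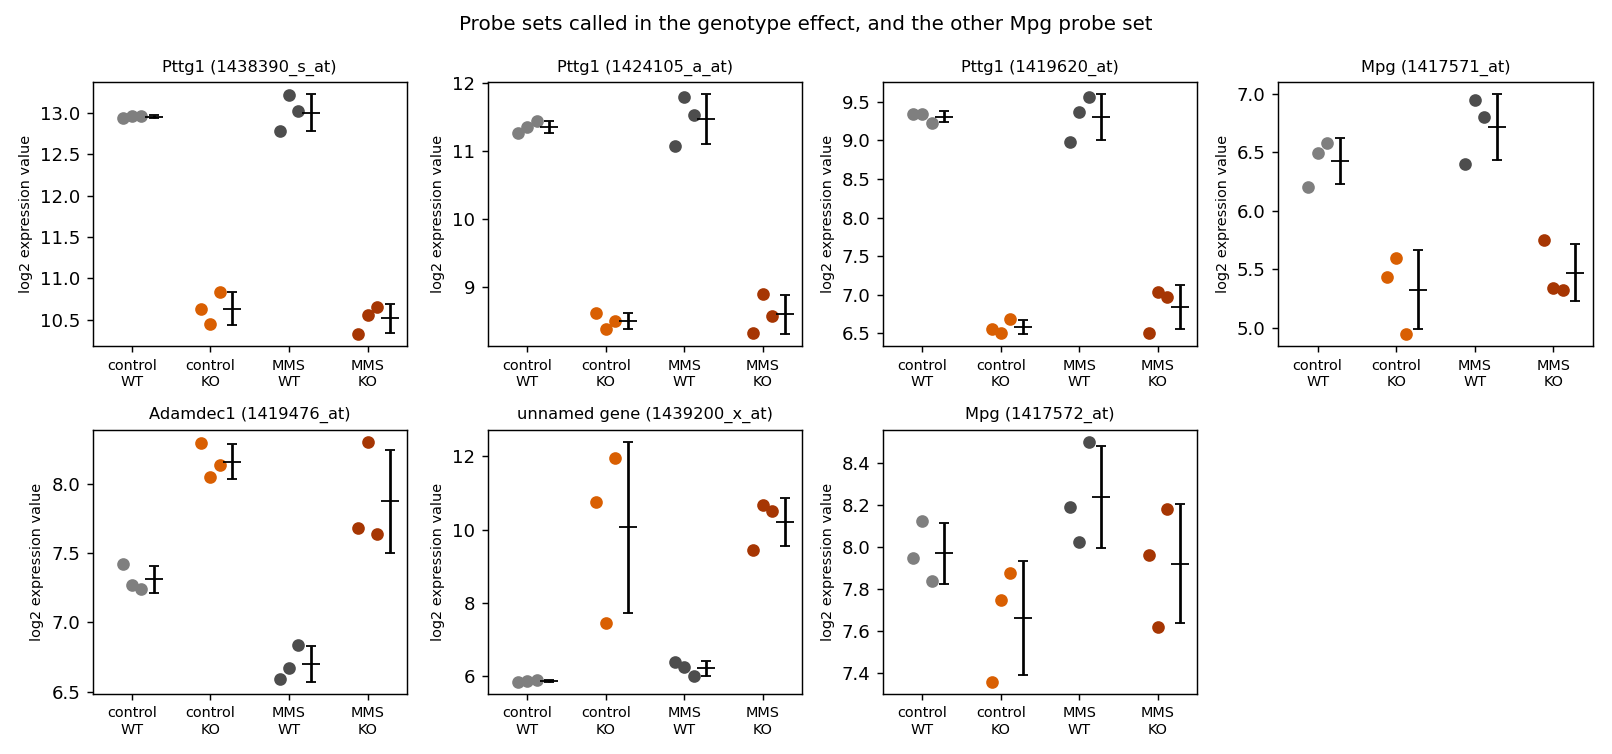
Log2 expression values of the 6 called probe sets and of the other Mpg probe set, each dot 1 array (n = 3 per group), bars the group mean ± SD, vertical axes not starting at 0. At each called probe set all knock-out dots lie on one side of all wild-type dots of the same treatment, while at Mpg probe set 1417572_at they overlap.

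Pttg1 and Mpg lie on the same mouse chromosome. In the order of the RefSeq gene table (GRCm38.p6, used for names and order only, since the array files name no build), Pttg1 is the 111th gene after Mpg. Of the 110 genes between them 28 were measured and 0 were called in limma, with differences from -0.64 to 0.20 and 1 unadjusted p under 0.05. Among the 25 genes on each side of Mpg, 17 were measured and 0 called, with 2 unadjusted p under 0.05 and a median difference of 0.01. Around Pttg1 the same window held 14 measured genes, of which 0 were called and 1 had an unadjusted p under 0.05. Over the whole chromosome 1041 genes were measured and 1 was called, Pttg1. Within 150 genes on each side of Mpg, a width chosen after seeing the data, 76 were measured. Of these 3 were lower without overlap of the genotypes in both treatments, Pttg1, Pnpt1 (-0.21 ± 0.09) and Ppp4r3b (-0.17 ± 0.08). Higher without overlap were 0. Over all genes the shares were 0.734% lower and 0.42% higher. The 25-gene windows and the stretch between Mpg and Pttg1 held 0 such genes. These counts take 1 probe set per gene, the brightest, so that the called Mpg probe set is not among them.

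**Figure D2:**
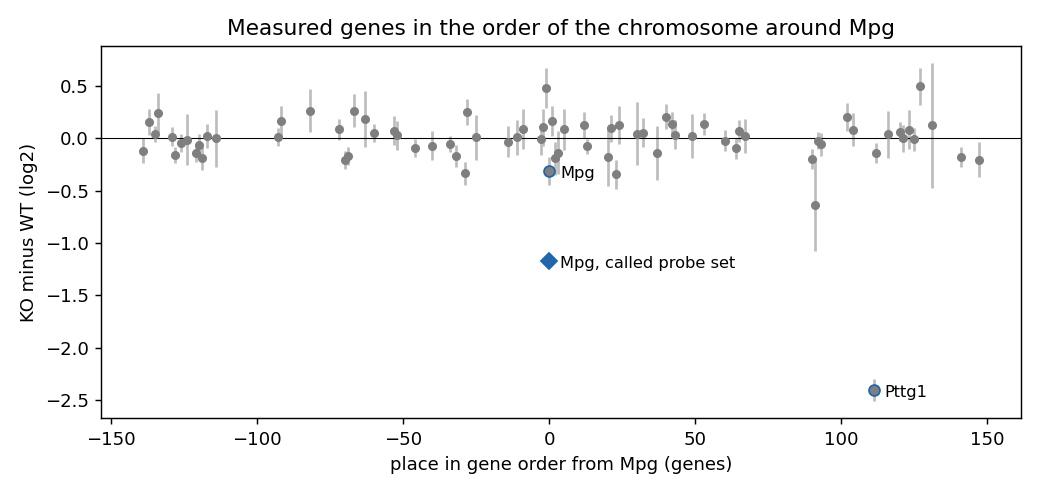
Knock-out minus wild-type difference (log2, bars the standard error of the fit) of measured genes against their place in gene order from Mpg, 150 genes on each side, 1 probe set per gene, with the called Mpg probe set added as a diamond. Pttg1, at place 111, stands at -2.40, while the measured genes between it and Mpg lie from -0.64 to 0.20.

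For most genes the genotype difference did not point the same way in both treatments. Only 38.4% of the 12393 genes had the same sign with and without MMS, and the differences in both treatments correlated at r = -0.27 across genes, which are not independent replicates. The arrays of the 2 treatments are from different animals. Genes whose 3 knock-out and 3 wild-type arrays did not overlap in either treatment numbered 52 higher in both (0.42%), 91 lower in both (0.734%) and 350 in opposite directions (2.82%). In separate fits, the 100 genes with the smallest p were chosen in 1 treatment alone. Those chosen on the control arrays had the same sign on the MMS arrays in 35 cases (35%). Those chosen on the MMS arrays had the same sign on the control arrays in 38 cases (38%). Over all genes the share was 38.4%. The interaction of genotype and treatment called 0 probe sets in limma, with 4009 (17.7%) at an unadjusted p under 0.05. That count was 2344 with array weights, 34 with dim probe sets left out, 158 without control knock-out array 3 and 104 without treated knock-out array 3.

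Within each treatment alone, few probe sets were called. Without MMS, 4 were higher (0.0177%) and 5 lower (0.0221%). The higher ones were the clock genes Nr1d1 and Nr1d2, both repressors of the circadian oscillator, the clock output factor Dbp, and Sphk2, a sphingosine kinase. Nr1d1 differed by 3.60 ± 0.33 without MMS (adjusted p = 0.00158) and by 0.59 ± 0.33 with it, and the difference between treatments was not called (adjusted p = 0.0649). The lower ones were the 3 Pttg1 probe sets, Akr1d1, a steroid reductase of bile acid synthesis, at 1 probe set, and Rfxank, a regulator of MHC class II genes. With MMS, 1 was higher (0.00442%), the immunoglobulin segment Ighv14-2 (1.46 ± 0.19, adjusted p = 0.0448), and 3 were lower (0.0133%), all of Pttg1. Pttg1 was thus the only gene called in both treatments separately. Leaving out treated knock-out array 3 raised the number called with MMS from 4 to 1118.

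**Figure D3:**
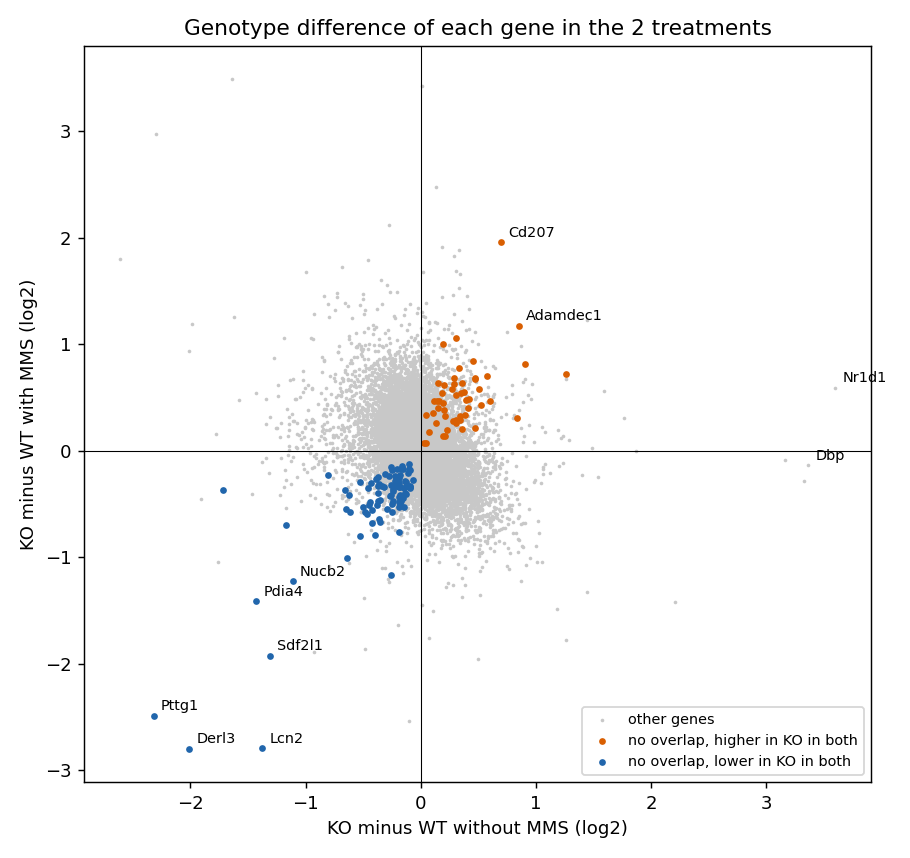
Genotype difference without MMS (horizontal, log2) against that with MMS (vertical, log2) for 12393 genes, 1 point each, with genes coloured where 3 knock-out and 3 wild-type arrays did not overlap in the same direction in both treatments. The 91 lower genes include Pttg1, Derl3, Lcn2, Sdf2l1, Pdia4 and Nucb2 in the lower left, while Nr1d1 and Dbp lie far right near 0 with MMS.

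The 91 genes lower in both treatments had a median size of 0.33 and reached 2-fold in 7. Of them 83 had an unadjusted p under 0.05, where 3.02% of all genes were lower at that p. The same arrays chose the 91 genes, so their small p-values follow largely from the choice. Pttg1 was the called one. Next by p came Nucb2, not called. Nucb2, a calcium-binding protein and precursor of nesfatin-1, read 9.05, 8.44 and 8.20 in control wild type and 7.43, 7.39 and 7.54 in control knock-out, then 9.49, 9.63 and 9.59 against 8.85, 7.81 and 8.37 after MMS. Knock-out arrays were lower within each treatment, but the treated knock-out and control wild-type ranges overlapped. The difference of -1.17 ± 0.18 just missed the threshold (limma adjusted p = 0.0668), and passed it in 4 of 26 alternatives.

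Also lower in both, and not called, were Snd1, a nuclease-domain protein of RNA silencing and splicing (-0.53 ± 0.10), Cap1, which recycles actin monomers (-0.93 ± 0.18), Golt1b, a Golgi transport protein (-0.82 ± 0.16), and Tmem170, a membrane protein (-0.49 ± 0.09), each with a limma adjusted p of 0.253. Lcn2, lipocalin 2, an acute phase protein that binds bacterial iron carriers, read 11.76, 10.18 and 10.25 in control wild type against 9.27, 9.74 and 9.05 in control knock-out. After MMS it read 12.90, 12.71 and 12.26 against 9.23, 10.93 and 9.33. Its arrays did not overlap within either treatment, with a wide gap after MMS, and its difference of -2.08 ± 0.39 (4.24-fold) was not called (adjusted p = 0.253). The other probe sets of Cap1 (-0.05), Golt1b (-0.27) and Snd1 (-0.14 and -0.22) were not separated in both treatments.

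Chaperones and degradation factors of the unfolded protein response, which the cell switches on when proteins misfold in the endoplasmic reticulum, lay on the low side in knock-out liver as a group, without any member being called. All 28 genes of the list were measured. In the effect over both treatments 27 had a negative value and 1, Xbp1, the transcription factor of the response, a positive one (0.09 ± 0.13). Over all genes 48.3% were negative. The median was -0.19, against 0.01 over all genes, and was -0.13 without MMS and -0.29 with it, against -0.02 and 0.03. A total of 19 members were lower in both treatments by sign, against 19.3% of all genes. At an unadjusted p under 0.05, 11 were lower and 0 higher, where all genes gave 3.02% and 3.15%. The median stayed between -0.25 and -0.14 over 20 alternatives. Without both knock-out arrays numbered 3, which stood apart from their groups, 26 members were negative and the median was -0.21. There 16 members were lower in both treatments by sign, and the median was -0.09 without MMS and -0.32 with it. The mean log2 level of the list was 11.630 to 11.746 in control wild type and 11.252 to 11.635 in control knock-out. After MMS it was 12.12 to 12.26 in wild type and 11.46 to 11.93 in knock-out. Thus the groups overlapped narrowly without MMS and were apart with it. Centring each array on its median moved the median of all genes to 0.07 without MMS and -0.14 with MMS, and that of the list to -0.04 and -0.46. The list takes in genes whose behaviour in these arrays was known when it was drawn up.

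The members with the smallest p were a co-chaperone, a component of the degradation channel and a folding enzyme. Sdf2l1, a partner of the chaperone BiP, read 9.02, 8.85 and 8.79 in control wild type and 7.77, 8.08 and 6.87 in control knock-out. After MMS it read 9.96, 9.72 and 9.38 in wild type and 8.26, 7.05 and 7.99 in knock-out. Its 6 knock-out arrays all lay below its 6 wild-type arrays. The difference was -1.62 ± 0.25 (3.07-fold, limma adjusted p = 0.0731), and it was called in 3 of 26 alternatives. Derl3, which helps move misfolded proteins out of the endoplasmic reticulum, read 9.55, 9.50 and 8.14 against 7.08, 7.95 and 6.12 without MMS, and 11.39, 10.41 and 11.20 against 9.21, 6.86 and 8.54 with it. Knock-out arrays were lower within each treatment, with a spread of over 2 log2 units among treated knock-out arrays. Its difference was -2.40 ± 0.44 (5.30-fold, adjusted p = 0.253). Pdia4, a protein disulfide isomerase, read 9.83, 9.95 and 10.17 against 8.99, 8.57 and 8.10 without MMS, and 9.15, 10.14 and 8.62 against 8.36, 8.15 and 7.16 with it. No knock-out array reached the wild-type range of its treatment, and the difference was -1.42 ± 0.27 (adjusted p = 0.253). Its dim second probe set overlapped (-0.14 ± 0.13).

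Edem1, a lectin that hands misfolded glycoproteins to degradation, was the other member without overlap in both treatments (-0.37 ± 0.10, limma adjusted p = 0.562). Thus 4 of 28 members were separated downward in both, beside 0.734% of all genes. Hyou1, a large chaperone of the compartment, differed between its probe sets. Its brightest, 1423291_s_at, overlapped (-0.20 ± 0.15). A dimmer one, 1423290_at, read 8.36, 8.50 and 8.85 against 7.33, 7.39 and 5.91 without MMS, and 8.20, 8.60 and 7.87 against 6.98, 6.17 and 6.20 with it. There the 6 knock-out arrays lay below the 6 wild-type arrays, and the difference of -1.73 ± 0.26 just missed the threshold (adjusted p = 0.0668). The third, 1451913_a_at, differed by -0.30 ± 0.16.

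**Figure D4:**
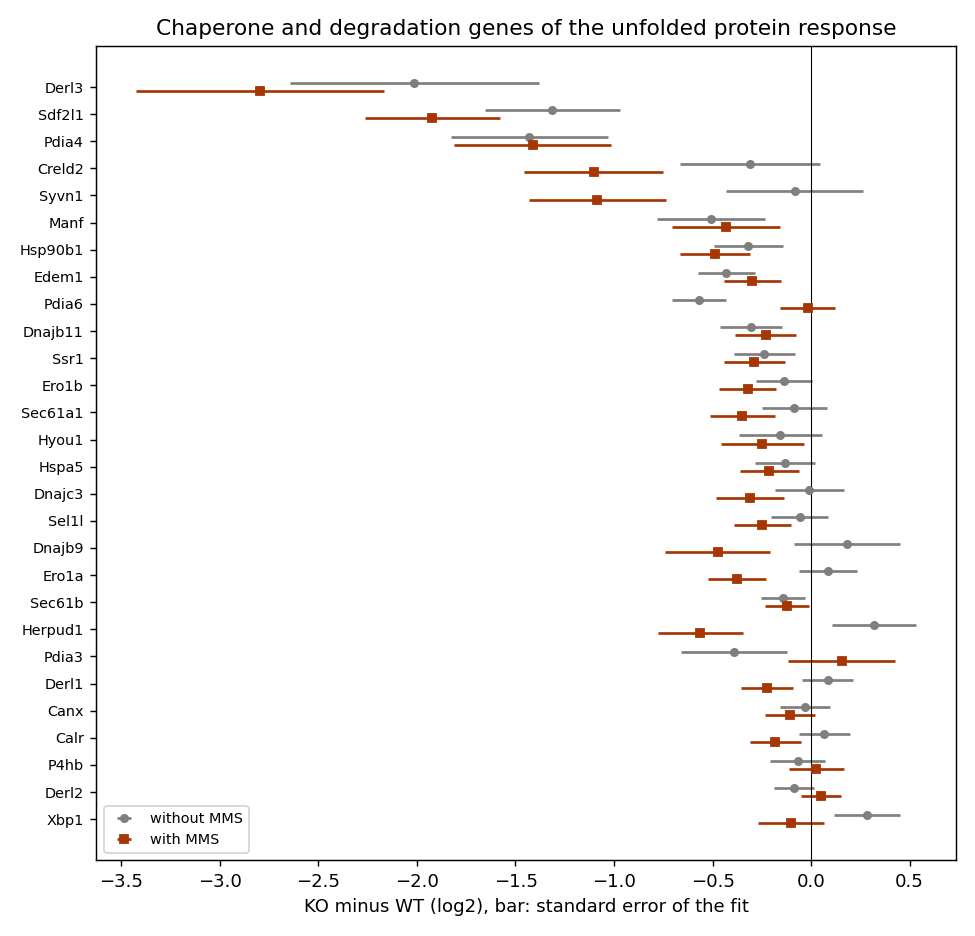
Knock-out minus wild-type difference of the 28 unfolded protein response genes without MMS (grey circles) and with MMS (brown squares), log2, bars the standard error of the fit, ordered by the effect over both treatments. Derl3, Sdf2l1 and Pdia4 stand below -1 in both treatments, most other members lie within 0.6 of 0, and Xbp1 is at the positive end.

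Many genes of this list are known to carry the endoplasmic reticulum stress element in their promoters, a sequence read by the factors ATF6 and XBP1 together with NF-Y. The element, the letters CCAAT and CCACG with 9 bases of any kind between them, was searched on both strands of 300-base RefSeq promoter windows, from 250 bases before to 50 after each gene start. It was found in 39 of 32851 windows (0.119%). Of the 28 list genes 24 had a window and 10 of those held the element. These 10 had a median difference of -0.26 and were all negative. Without the element, 14 genes had a median of -0.15 and 13 were negative. Among these 14 was Sdf2l1 (-1.62), and Pdia4 (-1.42) was not among the 10 with the element. A match is a description of the letters only. The 5 element-bearing genes with the smallest p are shown to let the shared spacing be seen, from GRCm38.p6, with the fixed letters of the element in capitals and the strand written so that the element reads 5′ to 3′.
Derl3, chr10:75893212-75893290, minus strand: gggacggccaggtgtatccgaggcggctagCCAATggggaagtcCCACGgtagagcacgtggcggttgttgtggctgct
Hsp90b1, chr10:86705608-86705686, minus strand: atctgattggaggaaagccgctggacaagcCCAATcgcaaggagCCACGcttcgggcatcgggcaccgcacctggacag
Creld2, chr15:88819490-88819568, minus strand: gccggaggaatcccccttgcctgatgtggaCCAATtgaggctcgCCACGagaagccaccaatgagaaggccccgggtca
Pdia6, chr12:17266461-17266539, plus strand: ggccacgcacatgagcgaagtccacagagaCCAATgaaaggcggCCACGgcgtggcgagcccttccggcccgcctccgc
Ero1b, chr13:12565652-12565730, minus strand: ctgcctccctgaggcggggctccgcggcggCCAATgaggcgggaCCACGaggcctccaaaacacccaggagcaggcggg

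In these genes the differences were -2.40 ± 0.44 for Derl3, -0.40 ± 0.12 for Hsp90b1, a chaperone, -0.71 ± 0.27 for Creld2, an endoplasmic reticulum stress protein, -0.29 ± 0.13 for the disulfide isomerase Pdia6 and -0.23 ± 0.10 for the oxidase Ero1b. None was called, and among them only Derl3 was separated in both treatments. Of a shorter variant, ATTGG and CCACG with 1 base between them, there were 12 windows (0.0365%), with Dnajb11 and Herpud1 in the list. TGACGTGG, an element bound by XBP1, was in 222 windows (0.676%) and in 0 of the list. No match says only that these letters are not in the window.

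The PERK and ATF4 branch of stress signalling, which acts through translation control, had 27 measured members and 0 called. Of these 20 were negative, with a median of -0.12. By unadjusted p 2 were lower and 1 higher, where all genes gave 3.02% and 3.15%. Mthfd2, a mitochondrial folate enzyme, stood at -0.94 ± 0.32, and Trib3, a pseudokinase, at 0.93 ± 0.40, the latter from 1.87 without MMS and 0.00 with it. Acute phase genes, made by hepatocytes in inflammation, had 26 measured and 0 called, with 19 negative and a median of -0.08. That median was 0.01 without MMS and -0.23 with it. Only 5 of the 26 were lower in both treatments by sign, against 19.3% of all genes. Apart from Lcn2, the pentraxin Apcs was separated downward in both treatments (-0.33 ± 0.11), and Saa1, a serum amyloid, stood at -0.66 ± 0.28.

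DNA repair lists held few differences besides Mpg. Base excision repair had 17 measured genes, with 0 called at the brightest probe set of each, 12 negative and a median of -0.07. Fen1, the nuclease that trims flaps in long-patch repair and replication, read 11.13, 10.77 and 11.48 against 10.20, 10.66 and 10.57 without MMS, and 11.45, 11.58 and 11.59 against 11.11, 10.47 and 11.40 with it. Its arrays did not overlap within either treatment, though the margins were narrow, and its difference of -0.60 ± 0.17 was not called (limma adjusted p = 0.562). The ligase Lig1 stood at -0.52 ± 0.31 and the glycosylase Nthl1 at 0.16 ± 0.16. In direct reversal and mismatch repair 6 genes were measured and 0 called, with Pms2, a mismatch repair factor, separated downward in both treatments (-0.55 ± 0.15) and Mgmt, the methylguanine methyltransferase, at 0.15 ± 0.22. Of 24 p53 targets 0 were called and the median was 0.01. Cdkn1a, the cell cycle inhibitor p21, stood at -1.18 ± 0.41, with -1.91 without MMS and -0.45 with it. PARP and NAD genes, which consume or make the cofactor of poly(ADP-ribose), gave 19 measured, 0 called and a median of 0.01.

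Cell cycle and replication genes, the list that holds Pttg1, had 27 measured members and 1 called, Pttg1 itself, beside 0.00807% of all genes called lower. Of the others 21 were negative, yet only 7 of the 27 were lower in both treatments. The list median was -0.30 in the effect over both treatments, -0.68 without MMS and 0.15 with it, the last turning to -0.02 when each array was centred on its median. The median over both treatments was -0.06 without control wild-type array 3 and -0.12 with the clock score as covariate, the 2 smallest sizes among 20 alternatives, and reached -0.41 without control wild-type array 2. The mean log2 level of the list reached 8.72 in control wild type and ran from 7.34 to 7.61 in control knock-out, and these 2 groups overlapped. Ccne2, a cyclin of S phase entry, stood at -0.42 ± 0.16, and the replication factors Cdc6 and Mcm3 at -0.51 ± 0.26 and -0.49 ± 0.25.

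The 52 genes higher in both treatments had a median size of 0.40, with 2 at 2-fold or more, Adamdec1 and Cd207. Of them 46 had an unadjusted p under 0.05, where 3.15% of all genes were higher at that p. Here too the same arrays chose the genes, so small p-values follow largely from the choice. Cd207, or langerin, a lectin of Langerhans and related dendritic cells, read 7.31, 7.38 and 7.17 against 7.97, 8.44 and 7.53 without MMS, and 6.03, 5.76 and 6.73 against 7.54, 8.78 and 8.06 with it. Knock-out arrays were higher in both treatments, and the difference of 1.32 ± 0.29 (2.51-fold) was not called (limma adjusted p = 0.349). Tmem131l, a regulator of thymocyte growth, stood at 0.65 ± 0.12 (adjusted p = 0.253), Limd2, a LIM domain protein, at 0.57 ± 0.12, Tpcn2, a lysosomal ion channel, at 0.53 ± 0.11, Ifi209, an interferon-inducible gene, at 0.50 ± 0.11 and Rassf5, a Ras effector of lymphocyte adhesion, at 0.46 ± 0.10, none called. Cd79b, a subunit of the B cell receptor, stood at 0.78 ± 0.18, Ighv14-2 at 0.93 ± 0.20 and Blm, the Bloom syndrome helicase, at 0.93 ± 0.21, each with overlap in the control arrays and not called.

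Most markers of lymphocytes and macrophages had positive differences. Of 17 lymphocyte markers 14 were positive, against 51.7% of all genes, and 11 higher in both treatments by sign, against 19.1% of all genes, with a median of 0.28 and 0 called. By unadjusted p 6 were higher, against 3.15% of all genes. Cd3g, a T cell receptor subunit (0.44 ± 0.13), Il7r, the interleukin-7 receptor (0.31 ± 0.10), and Cd2, an adhesion receptor (0.29 ± 0.10), were separated upward in both. Over all genes 0.42% were so separated. The second Il7r probe set had the opposite sign (-0.22 ± 0.29). The mean log2 level of the list was 6.04 to 6.20 in control wild type and 6.17 to 6.41 in control knock-out, then 5.52 to 5.72 in treated wild type and 5.99 to 6.17 in treated knock-out. Thus the groups overlapped without MMS and were apart with it. In such whole-liver RNA, more cells of a type and more RNA per cell cannot be told apart. Of 17 Kupffer cell and macrophage markers 15 were positive, with a median of 0.30 (0.09 without MMS and 0.54 with it) and 0 called. Mean log2 levels of that list overlapped between genotypes without MMS. With MMS they were barely apart, up to 9.89 in wild type and from 9.90 in knock-out. Cd14, a receptor for bacterial lipopolysaccharide, stood at 0.61 ± 0.17 and the lysozyme Lyz2 at 0.58 ± 0.18. Of 14 antigen presentation (MHC) genes 13 were positive, with a median of 0.21 and 0 called, and H2-Eb1, a class II chain, at 0.52 ± 0.23. The mean log2 levels of the MHC list overlapped between genotypes in both treatments.

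Other lists served as references. The 14 hepatocyte markers, which define the labelled tissue, had mean log2 levels of 13.2 to 13.5 in all groups and a median difference of 0.04. Endothelial and stellate cell markers had medians of 0.12 each, neutrophil markers 0.07, erythroid markers 0.05 and cholangiocyte markers 0.07, with 0 called in each. Over the alternatives the cholangiocyte median fell as low as -0.06, the neutrophil one -0.03, the stellate one -0.02 and the erythroid and hepatocyte ones -0.01. The endothelial median stayed positive (lowest 0.04). For 3 of these lists the median over both treatments joined values of opposite sign. Stellate cell markers stood at -0.26 without MMS and 0.56 with it, and cholangiocyte markers at -0.27 and 0.37. Endothelial markers stood at -0.07, which turned to 0.03 when arrays were centred, and 0.28. With MMS, then, the stellate median was close to that of the Kupffer cell and macrophage list (0.54), and no difference between these lists was tested. Pancreatic acinar markers had 12 measured genes, all positive, with a median of 0.59 and 0 called. The median ran from 0.09 without treated knock-out array 1 to 0.83 without treated knock-out array 3, and was 0.29 with array weights. Their mean level ran from 5.76 to 7.38 in treated wild type and from 6.33 to 9.08 in treated knock-out, so the groups overlapped. The part of these markers in the differences above was not tested. Cholesterol synthesis genes had 19 measured, 16 positive and 0 called, with a median of 0.29 that was 0.62 with MMS and -0.07 without it, the latter turning to 0.02 when arrays were centred. Msmo1, a sterol oxidase, stood at 0.69 ± 0.18 and Idi1, the isomerase of isoprenoid units, at 0.59 ± 0.17. Over 20 alternatives the median ran from 0.16 to 0.43 for cholesterol synthesis, 0.19 to 0.41 for Kupffer cells and macrophages, 0.19 to 0.34 for lymphocytes and 0.11 to 0.26 for MHC genes. In all, 32 lists with 558 measured genes held 1 called member.

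**Figure D5:**
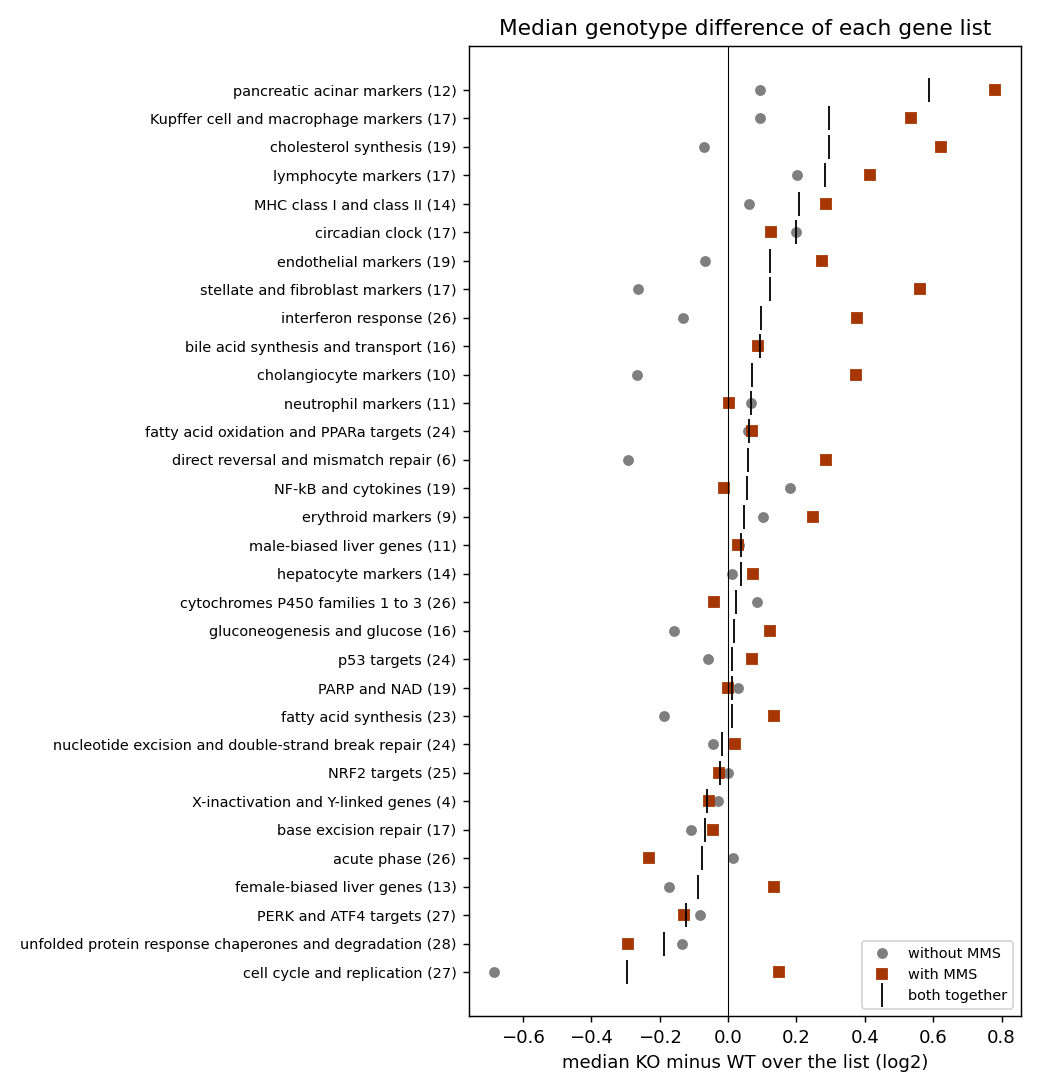
Median knock-out minus wild-type difference (log2) of each of 32 gene lists, without MMS (grey circles), with MMS (brown squares) and over both (black bars), with the number of measured genes in brackets. The unfolded protein response list lies below 0 in both treatments and the lymphocyte list above 0 in both, while the cell cycle list lies at -0.68 without MMS and, as deposited, at 0.15 with it (-0.02 after centring).

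Array medians ran from 7.42 to 7.75, and 9 of 12 arrays correlated best with an array of their own group. Of the exceptions, control knock-out array 3 was closest to treated knock-out array 3, and treated wild-type array 1 to control knock-out array 2. Treated knock-out array 3 was closest to control wild-type array 2. The 5′ minus 3′ signal of control probe sets, a gauge of RNA integrity, ran from -2.66 to -1.51, and was highest in treated knock-out arrays 1 and 2 (-1.61 and -1.51). A clock score, the mean of 7 evening genes minus that of 4 dawn genes, ran from -2.93 to -2.64 in control wild type, -1.12 to 2.18 in control knock-out, 1.27 to 1.39 in treated wild type and 0.79 to 1.68 in treated knock-out. It therefore moved with genotype in the control animals. With the score as a covariate Mpg stood at -1.10 and lost its call (adjusted p = 0.219), as did 1439200_x_at, at 3.38 (adjusted p = 0.264), while Pttg1 kept its call at all 3 probe sets and Adamdec1 its own narrowly (adjusted p = 0.0495).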

How the data were processed

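Liver RNA of 12 mice was labelled with biotin and hybridised to Affymetrix arrays, per the labels. The authors deposited 1 log2 value per probe set and array, made with RMA per the submitters' processing notes. The sources used here do not give its version or the chip definition, and the log base was inferred from the range of values. RMA commonly scales arrays to each other, so a shift common to most transcripts may be hidden. The deposited array medians still ran from 7.42 to 7.75, and centring them moved the medians of all genes. Of 22690 probe sets 64 controls were removed, and 20380 had 1 gene symbol in the platform annotation. For each gene the probe set of highest average level over the arrays stood for it.

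limma 3.58.1 in R 4.3.3 fitted treatment plus genotype (9 residual degrees of freedom), with Benjamini-Hochberg adjustment over 22626 probe sets. Contrasts within each treatment and their difference came from 1 mean per group. Replicates are separate animals by their titles, 3 per group, and that number limits the precision. Shared animal numbers mark no litter or batch in the labels. Deviations of same-numbered arrays from their group means correlated at r from -0.48 to 0.40 over 18 pairs (mean 0.01). For differently numbered arrays r ran from -0.47 to 0.52 over 36 pairs (mean -0.01). On simulated data the fit recovered 48 of 50 probe sets lowered by 2 and 38 of 50 lowered by 1 in the genotype main effect, over 22626 probe sets, with 10 false calls in all.

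Named genes were Mpg, called genes, the 10 with the smallest p in each direction and up to 4 members of each list by p. Genes called in 1 treatment, other probe sets of named genes, genes with the promoter element and Lig1, Nthl1 and Mgmt were added after their values were seen. Members and lists were chosen with earlier results of these data known. Alternatives were other scalings, filters, variance models, covariates, probe set choices and left-out arrays.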

Additional observations from a re-analysis of the deposited data

How the results depend on the processing

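Pttg1 kept its call under every alternative run, and none of the differences of the genes named by p changed sign. Mpg at 1417571_at lost its call after quantile normalization (-1.20, adjusted p = 0.0559), with no variance moderation (-1.17, 0.0806), with the clock score as covariate (-1.10, 0.219) and without both knock-out arrays numbered 3 (-1.04, 0.111). Over omissions of 1 array it ran from -1.24 to -1.10. The gene mean of Mpg was called (-0.74, adjusted p = 0.0283).

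The main effect had 2 probe sets higher and 4 lower. Higher calls numbered 1 with the upper 50% of probe sets, a trended variance, the 5′ to 3′ covariate, 1 probe set per gene or gene means, and 0 with no moderation or without both arrays numbered 3. Lower calls numbered 7 with the trend, 1 with 1 probe set per gene and 2 with gene means. The count without MMS was 9 as reported, 182 with array weights, 5 with no moderation and 3 with gene means. With MMS it was 4, against 91 above a mean of 6, 200 in the upper 50%, 64 with the trend, 1482 with weights, 1353 without both arrays numbered 3, 9 with 1 probe set per gene and 10 with gene means. The interaction gave 0, against 34, 43, 28, 2344, 514, 20 and 3 in the same order, and 5 with the clock score. Omitting 1 array gave 0 to 4 higher, 3 to 6 lower, 4 to 18 without MMS, 3 to 1118 with MMS and 0 to 158 for the interaction. Some of these fits held fewer probe sets or arrays, and the cause of the moves was not tested.

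Genes separated upward in both treatments numbered 52, against 85 after quantile normalization and 191 without both arrays numbered 3, and downward 91, against 409 without those arrays. Omitting 1 array gave 66 to 147 upward, the most without control knock-out array 2. Downward it gave 104 to 206, the most without treated knock-out array 3. Leaving out an array cannot lower these counts, since 2 arrays separate more easily than 3. The spread between omissions was not tested. Of 50 genes chosen on MMS arrays 50% kept their sign. With 150 genes on each side of Mpg, a width chosen after seeing the data, 1 was called.

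With the animal number as a replicate block, 0 probe sets were called higher and 3 lower, and Mpg stood at -1.17 (adjusted p = 0.0882). Of 18 same-numbered pairs of arrays 7 were above r = 0.1, as were 13 of 36 differently numbered pairs. The labels give no pairing, and these correlations cannot show whether animals shared a litter or batch.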
